A study of Mus musculus with 21 samples.

Results

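The genes described here are 10 members of the hypoxia-inducible factor (HIF) pathway, chosen by gene symbol and read beside Egln1, the gene of the main oxygen-sensing prolyl hydroxylase. They are Hif1a, Epas1, Vhl, Egln2, Egln3, Vegfa, Bnip3, Ldha, Pdk1 and Pgk1, and all 10 were among the 41128 gene symbols of the table. RNA was sequenced from striatal tissue of wild type mice, for which one label gives an age of 3 weeks and another 3 months. The striatum had been injected with an adeno-associated virus (AAV, a gene carrier that does not replicate), and tissue was collected 3 weeks later. In the first of the 2 sets of libraries, set A, the groups were 3 labelled WT, 3 labelled Cas9 and 3 labelled GCas9, and in set B they were 4 labelled GFP, 4 labelled Cas9 and 4 labelled GCas9. Cas9 is the bacterial nuclease of genome editing, and GFP, a fluorescent protein, is commonly delivered as a control. The labels do not expand GCas9, which from knowledge of the study is Cas9 joined to a piece of Geminin, a fusion with a shorter life in the cell. The labels state the injection for every library and do not say what, if anything, the WT mice received, nor which promoter or guide the viruses carried. All libraries are bulk tissue, in which fewer cells of a type and less RNA per cell cannot be told apart.

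As background, cells with enough oxygen hydroxylate the HIF alpha subunits, encoded by Hif1a and Epas1, on prolines. The hydroxylases are encoded by Egln1, Egln2 and Egln3. The product of Vhl binds the hydroxylated subunits and marks them for destruction, and when oxygen is short the subunits escape this, pair with Arnt and bind DNA. Their targets include Vegfa, the vessel growth factor, the glycolytic enzymes Ldha and Pgk1, Pdk1, which slows the entry of pyruvate into mitochondria, and Bnip3, a mitochondrial outer membrane protein that promotes removal of mitochondria. Egln1 and Egln3 are targets as well as regulators. HIF alpha subunits are controlled largely at the protein level, which these RNA data do not show.

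HIF complexes are known to bind a short core, written ACGTG or GCGTG. The core was searched on both strands of RefSeq promoter windows (build GRCm38.p6) that run from 250 bases before to 50 bases after a transcription start. Of the 10 genes, 9 had an entry, with 13 windows in all, and 10 of these windows held the core. The 8 genes with a core were Hif1a, Egln2, Egln3, Vegfa, Bnip3, Ldha, Pdk1 and Pgk1, and the single window of Vhl held none. The core is short, and 43.8% of all 32851 windows held it. The stretches printed here are those of Egln1, which had the largest difference of these genes in set B, of 4 targets, and of Egln3, the least abundant of the 10. Neither Egln1 nor the 4 targets passed the main test (limma) there. Capitals mark each core on either strand, neighbouring or overlapping matches being run together, and each stretch is read 5′ to 3′ on the strand of its gene and lies before the RefSeq start.
Egln1, chr8:124949298-124949400, minus strand: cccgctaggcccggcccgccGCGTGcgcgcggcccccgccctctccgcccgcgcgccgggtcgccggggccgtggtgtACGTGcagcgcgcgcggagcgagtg
Ldha, chr7:46845639-46845794, plus strand: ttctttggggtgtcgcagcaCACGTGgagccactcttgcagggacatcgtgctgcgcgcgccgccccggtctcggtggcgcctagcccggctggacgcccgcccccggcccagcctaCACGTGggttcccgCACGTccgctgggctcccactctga
Pgk1, chrX:106186930-106186993, plus strand: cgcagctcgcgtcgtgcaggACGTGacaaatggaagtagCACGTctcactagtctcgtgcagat
Bnip3, chr7:138909517-138909643, minus strand: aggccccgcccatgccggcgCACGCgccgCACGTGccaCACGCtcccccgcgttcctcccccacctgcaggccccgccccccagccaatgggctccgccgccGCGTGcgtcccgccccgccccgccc
Pdk1, chr2:71873126-71873170, plus strand: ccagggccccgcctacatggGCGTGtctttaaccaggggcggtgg
Egln3, chr12:54204079-54204123, minus strand: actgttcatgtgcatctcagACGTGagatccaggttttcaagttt
Egln1 has 2 separate places with the core in its stretch, beginning at -126 and -68 from the start. Ldha has 3, Pgk1 has 2 and Bnip3 has 4, while Pdk1 and Egln3 have 1 each. Stretches not printed include 1 of Egln2, which is not known as a HIF target, with 4 places, and that of Hif1a, with 2. For the target Vegfa, 1 window held no core. The number of places was not compared between targets and other genes. A match is a run of letters and was not tested as a binding site.

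All values are read counts per gene that the authors had scaled to the depth of each library, called normalized counts. Set A held 20.34 to 28.05 M (mega) reads on genes per library and set B 6.09 to 11.07 M, and the 4 Cas9 libraries of set B were its shallowest, at 6.09 to 7.69 M. The sets were scaled apart, so levels were compared within a set. Markers of neurons, oligodendrocytes, astrocytes, microglia, endothelium, mural cells, choroid plexus with ependyma, red cells and lymphocytes were read in each group, and no marker was at 0 in any of them. Summed markers of choroid plexus and ependyma stood apart in Cas9 replicate 1 of set A, at 293785 against 1025 to 12293 in the other libraries of that set. They also stood apart in Cas9 replicate 1 of set B, at 10909 against 320 to 788 in its other 11 libraries. Differences are given as log2 ratios with their standard error (SE) from limma, fitted on log2(normalized count + 1) over all genes of a set with a mean of at least 10, and p-values were adjusted over all those genes with a threshold of 0.05. The labels do not say that replicates came from separate animals, so the p-values measure only the spread between these samples, which may be technical.

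None of the 10 genes passed the test in any comparison of either set. In set B, Egln1 stood 2.03-fold higher with Cas9 and 2.5-fold higher with GCas9 than with GFP, with no overlap between the libraries, and did not pass after adjustment in limma, though it did in DESeq2. The 9 HIF genes that could be tested beside it in set B stayed within -0.15 and 0.14 on the log2 scale in both comparisons with GFP. In set A, Egln1 lay at nearly the same level in all groups, and the widest differences among the 10 genes were those of Egln3 and Epas1.

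The level of each gene per kilobase of its annotated exons (GENCODE M21, build GRCm38) gives the order of the genes within a set. In set A, Ldha led with 1225 ± 99.8 normalized counts per kb (SD, n = 9), above Pgk1 with 754 ± 38.7, and Egln2 with 655 ± 39.5. Epas1 followed with 618 ± 69.6, Vegfa with 592 ± 42.8, Egln1 with 571 ± 24.6 and Bnip3 with 567 ± 35.5. The intervals of 1 SD of Egln2, Epas1, Vegfa, Egln1 and Bnip3 overlap from each gene to the next in this order, so these intervals do not separate the neighbours. Vhl with 350 ± 26.8 and Hif1a with 312 ± 21 lay lower, and the ranges of these neighbours overlapped as well. In each set all genes were read in the same libraries, so an overlap of ranges does not settle their order within a library. Pdk1 with 98.0 ± 8.35 and Egln3 with 15.4 ± 7.24 were the lowest.

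In set B Ldha again led, with 985 ± 63.5 normalized counts per kb (SD, n = 12). Egln2 with 335 ± 25.4, Bnip3 with 334 ± 36.8 and Pgk1 with 316 ± 28.8 came next and overlapped. Vhl stood at 253 ± 21.3, Epas1 at 225 ± 31.6 and Egln1 at 218 ± 91.0, again with overlapping libraries. Lower in the order were Hif1a with 140 ± 13.5, Vegfa with 102 ± 8.43, Pdk1 with 48.7 ± 4.76 and Egln3 with 3.12 ± 1.58. Over the 12 libraries the highest level was 3.52 times the lowest for Egln1 and 4.31 times for Egln3, against 1.22 to 1.59 times for the other genes. The wide SD of Egln1 covers its 3 groups, at 117 ± 16.3 normalized counts per kb with GFP, 245 ± 75.4 with Cas9 and 293 ± 48.1 with GCas9 (SD, n = 4 each), and that of Egln3 rests on 3 to 16 reads per library.

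**Figure D1:**
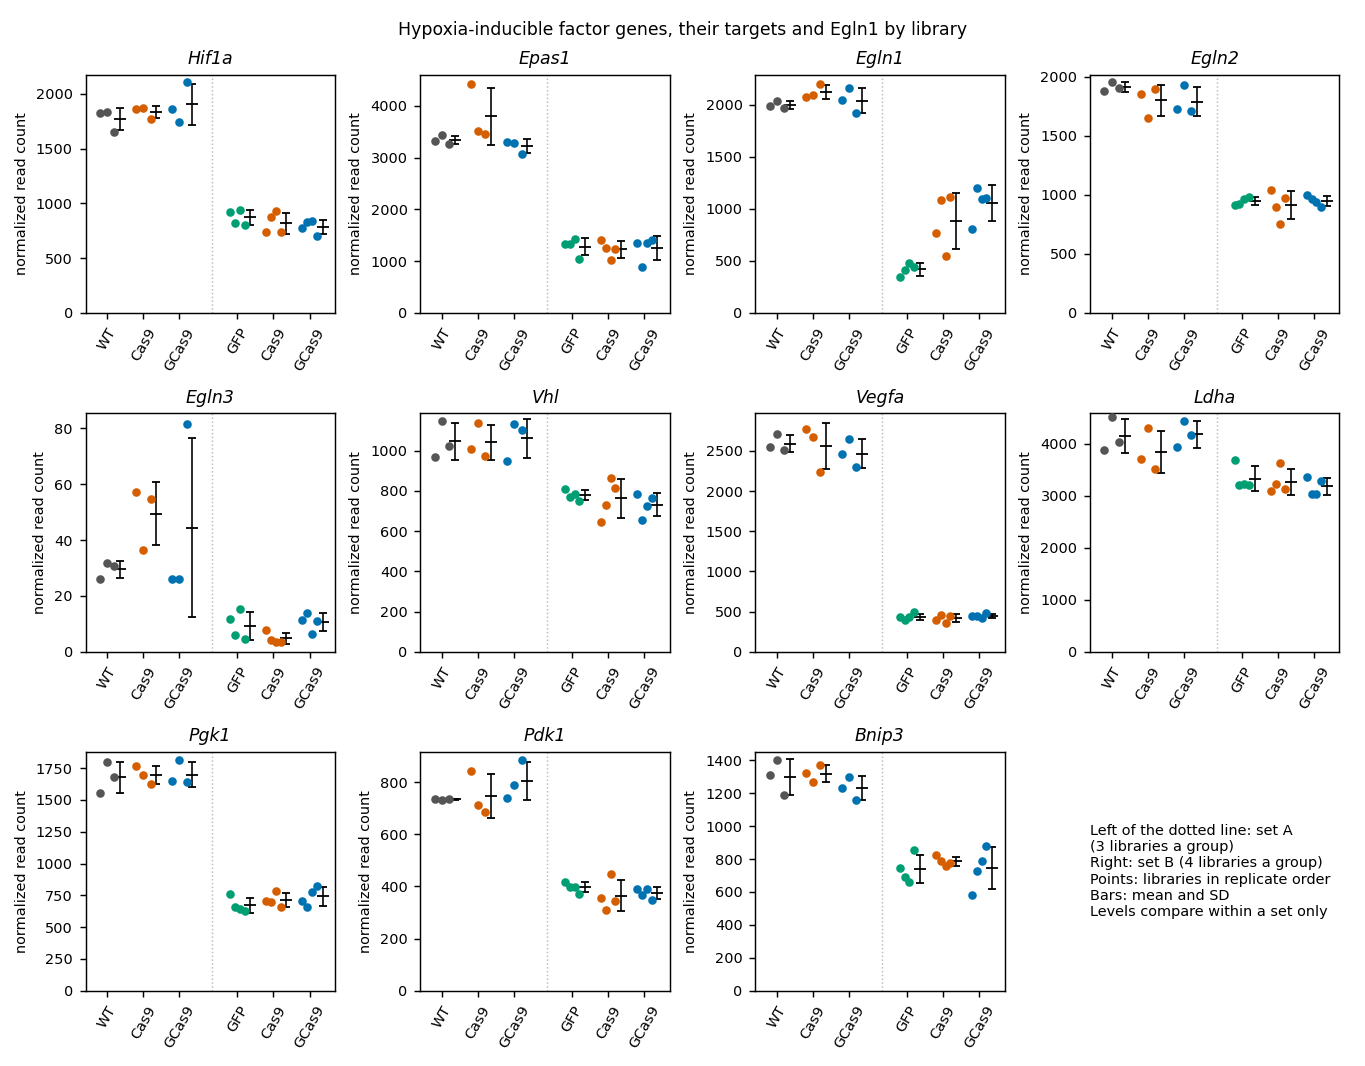
Normalized counts of Egln1 and the 10 HIF genes in each of the 21 libraries, on linear axes, set A and set B apart. Points are libraries, and bars are group means with SD. The 4 GFP libraries of Egln1 sit between 342 and 480, below all Cas9 and GCas9 libraries of set B, while for the HIF genes other than Egln3, which is scarce and scattered, the highest library of a set is at most 1.59 times the lowest.

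The prolyl hydroxylase Egln1 was read first, library by library, because the 10 genes belong to the same pathway. Egln1 was chosen with earlier results of these data known, so its p-values and ranks are a description and no independent test. In set B its normalized counts were 342, 410, 480 and 442 in the GFP libraries, 771, 1086, 549 and 1117 in the Cas9 libraries and 803, 1204, 1095 and 1105 in the GCas9 libraries. Every Cas9 and GCas9 library lay above every GFP library, and the Cas9 libraries were the most scattered, with replicate 3 nearest to GFP. The group means were 419 ± 58.6 for GFP, 881 ± 271 for Cas9 and 1052 ± 173 for GCas9 (SD, n = 4 each). Cas9 differed from GFP by 1.02 ± 0.2 on the log2 scale (SE; 95% interval 0.6 to 1.45; unadjusted p = 0.000158, adjusted p = 0.56 in limma), which ranked Egln1 4 of 15428 genes by p. GCas9 differed from GFP by 1.32 ± 0.2 (95% interval 0.89 to 1.75; unadjusted p = 1.23e-05, adjusted p = 0.065 in limma), at rank 2. DESeq2 on the recovered reads gave adjusted p = 0.00014 and 4.8e-08 for these, and edgeR gave 0.47 and 0.08. Without Cas9 replicate 1, the library with the high choroid plexus markers, Cas9 against GFP was 1.07 (adjusted p = 0.44 in limma). Cas9 against GFP passed in limma without Cas9 replicate 3 (1.23, adjusted p = 0.046), and GCas9 against GFP just passed without GCas9 replicate 1 (1.45, adjusted p = 0.05 after rounding). Of the 15428 genes, 4.68% did not overlap between Cas9 and GFP, and 4.16% between GCas9 and GFP.

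GCas9 and Cas9 differed in Egln1 by 0.3 ± 0.2 in set B (adjusted p = 0.99 in limma), with overlapping libraries. In set A the normalized counts of Egln1 were 1989, 2040 and 1970 in the WT libraries, 2070, 2095 and 2197 in the Cas9 libraries and 2046, 2156 and 1919 in the GCas9 libraries. The Cas9 libraries lay just above those of WT without overlap, and the GCas9 libraries ran across both. Of all 15924 genes, 19.6% did not overlap between Cas9 and WT. For Egln1, Cas9 differed from WT by 0.08 ± 0.05 (95% interval -0.04 to 0.2; adjusted p = 0.52 in limma), and GCas9 from WT by 0.03 ± 0.05 (adjusted p = 0.93). GCas9 differed from Cas9 by -0.06 ± 0.05 (adjusted p = 0.95). Whether the differences of Egln1 from the controls were unequal in the sets was asked after its values were seen, and the controls differ, GFP in one and WT in the other. These 2 contrasts called 0.0124% and 0.0% of all 16094 genes, and 4.8% and 8.4% had an unadjusted p under 0.05. The difference between the sets was 0.94 ± 0.26 for Cas9 (unadjusted p = 0.00182, adjusted p = 0.78 in limma) and 1.29 ± 0.26 for GCas9 (unadjusted p = 8.35e-05, adjusted p = 0.11). For GCas9, DESeq2 gave the latter an adjusted p of 0.00036.

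**Figure D2:**
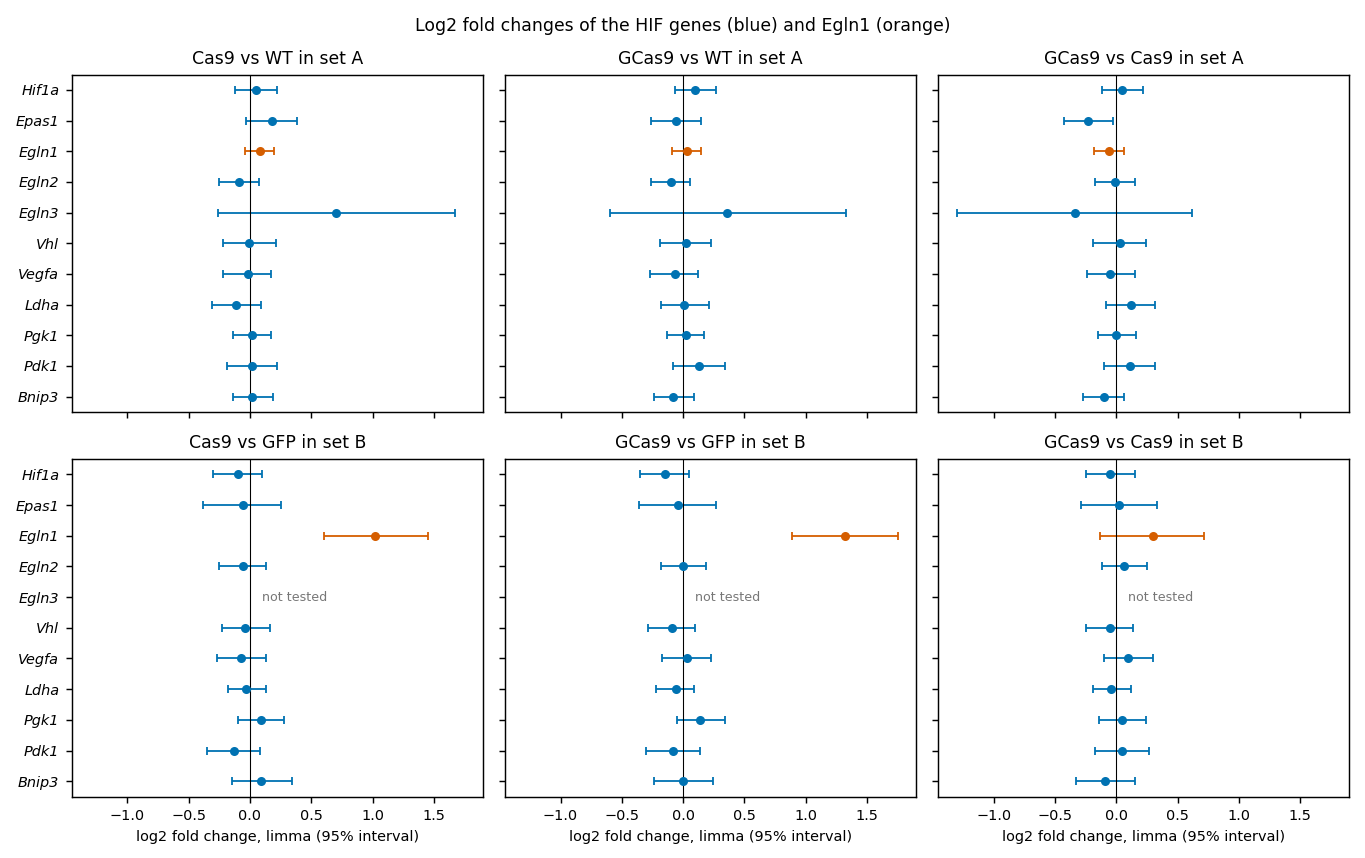
Log2 differences of Egln1 and the 10 HIF genes in each of the 6 comparisons, with points for the limma estimates and bars for 95% intervals. Egln1 lies at 1.02 and 1.32 against GFP in set B, while the HIF genes tested beside it lie between -0.15 and 0.14 there, and Egln3 has the widest intervals in set A.

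The oxygen-regulated alpha subunits themselves, Hif1a and Epas1, were near their control levels in set B. Hif1a, whose product is present in most cell types, had normalized counts of 920, 825, 943 and 806 in the GFP libraries, 736, 872, 929 and 737 with Cas9 and 779, 832, 839 and 699 with GCas9. The 3 groups overlapped, with the lowest single value in GCas9 and the highest in GFP. The group means of Hif1a were 873 ± 67.8, 818 ± 97.4 and 788 ± 64.7 (SD, n = 4 each). Epas1, whose RNA is known as abundant in endothelium and also present in astrocytes, had 1325, 1338, 1427 and 1041 with GFP, 1408, 1251, 1016 and 1232 with Cas9, and 1358, 896, 1358 and 1410 with GCas9. These groups overlapped too, and GCas9 replicate 2 stood apart below the other 3 of its group. The summed astrocyte markers of that library were the highest of set B, at 26644 against 17473 to 22867, and its summed endothelial markers were the highest as well, at 2599 against 1987 to 2492. Much of the lead in astrocyte markers came from Gfap alone, at 9235 against 1451 to 7210 in the other libraries of set B. The part of cell make-up in the low Epas1 level of GCas9 replicate 2 was not tested.

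In set A, Hif1a had normalized counts of 1822, 1839 and 1651 in WT, 1866, 1868 and 1770 with Cas9, and 1859, 1748 and 2107 with GCas9. The groups overlapped, and the single highest library was GCas9 replicate 3. Hif1a lies at chr12:73901375-73947530 and overlaps the antisense gene Gm15283, whose row held at most 2.08 in set A but 103 to 197 in set B. Whether the counting used strand is not given in the sources used here, so reads of this pair may not be separated.

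Epas1 was the alpha subunit with a difference between groups in set A. Its normalized counts were 3323, 3436 and 3272 in WT, 4430, 3517 and 3454 with Cas9, and 3303, 3291 and 3062 with GCas9. All 3 Cas9 libraries lay above those of both other groups, but 2 of them by little, with replicate 1 far above. Cas9 differed from WT by 0.18 ± 0.09 on the log2 scale (unadjusted p = 0.0825, adjusted p = 0.46 in limma), and by 0.06 without Cas9 replicate 1. GCas9 differed from Cas9 by -0.23 ± 0.09 (95% interval -0.43 to -0.03; unadjusted p = 0.0303, adjusted p = 0.89 in limma), and by -0.12 without that library. Cas9 replicate 1 is the library with the high choroid plexus markers, and it also held the highest sums of endothelial markers, 5291, and of mural markers, 7000 against 4662 to 5574 in the other set A libraries. The endothelial sums of all 3 Cas9 libraries, 4305 to 5291, lay above those of WT, 3462 to 3986, and of GCas9, 3794 to 4039, as the Epas1 levels did. The part of these cells in the Epas1 level was not tested. The ratio of Hif1a to Epas1 per kb was 0.503 ± 0.0208 in WT, 0.463 ± 0.0551 with Cas9 and 0.56 ± 0.0794 with GCas9 (SD, n = 3 each), and 0.65 ± 0.0627, 0.65 ± 0.161 and 0.62 ± 0.18 in GFP, Cas9 and GCas9 of set B (SD, n = 4 each), overlapping in each set.

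The other hydroxylases and Vhl sit on the side of the pathway that removes the alpha subunits. Egln2, the hydroxylase that is not known as a HIF target, had group means of 947 ± 32.9 with GFP, 915 ± 122 with Cas9 and 949 ± 40.4 with GCas9 in set B (SD, n = 4 each), with libraries from 754 to 1039. In set A its means were 1913 ± 40.5 in WT, 1800 ± 132 with Cas9 and 1789 ± 125 with GCas9 (SD, n = 3 each). Its libraries overlapped between the groups in each set. Vhl, the substrate receptor of the ubiquitin ligase, had 779 ± 25.8, 763 ± 96.7 and 732 ± 57.9 in GFP, Cas9 and GCas9 of set B (SD, n = 4 each) and 1047 ± 91.5, 1041 ± 87.3 and 1062 ± 97.4 in WT, Cas9 and GCas9 of set A (SD, n = 3 each). Its libraries overlapped between all groups of a set.

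Beside the similar Egln2 levels of the groups, the share of Egln1 among the 3 hydroxylase transcripts followed the Egln1 level. Per kb, Egln1 made up 25.4% ± 2.22 of the summed hydroxylase level with GFP, 42.1% ± 6.69 with Cas9 and 45.9% ± 5.07 with GCas9 (SD, n = 4 each). The GFP libraries ran from 22.3 to 27.6%, the Cas9 libraries from 36.1 to 48.5% and the GCas9 libraries from 38.3 to 49.0%, so that GFP did not overlap with the others. Egln2 was the larger share in GFP, at 73.9% ± 2.21. In set A the Egln1 share was 44.5% ± 0.306 in WT, 47.2% ± 1.8 with Cas9 and 46.4% ± 1.07 with GCas9 (SD, n = 3 each). The WT libraries, at 44.2 to 44.8%, lay below every Cas9 library, at 45.7 to 49.2%, and every GCas9 library, at 45.5 to 47.6%. How often such shares of other genes do not overlap was not counted in either set. The group means of the Egln1 share in set A lay within the range of the Cas9 and GCas9 libraries of set B. The highest Cas9 library of set A, at 49.2%, lay just above that range. This is a description across tables scaled apart, in which only the shares within a library were used. Levels of genes relative to each other also differed between the sets. Per kb, Vegfa was at 592 and Egln2 at 655 in set A, against 102 and 335 in set B. Nothing is therefore read from where the Egln1 shares of one set lie beside those of the other. Egln3 made up 0.886 to 1.48% of the sum as group means in set A, and in set B 0.32 to 0.766%.

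**Figure D3:**
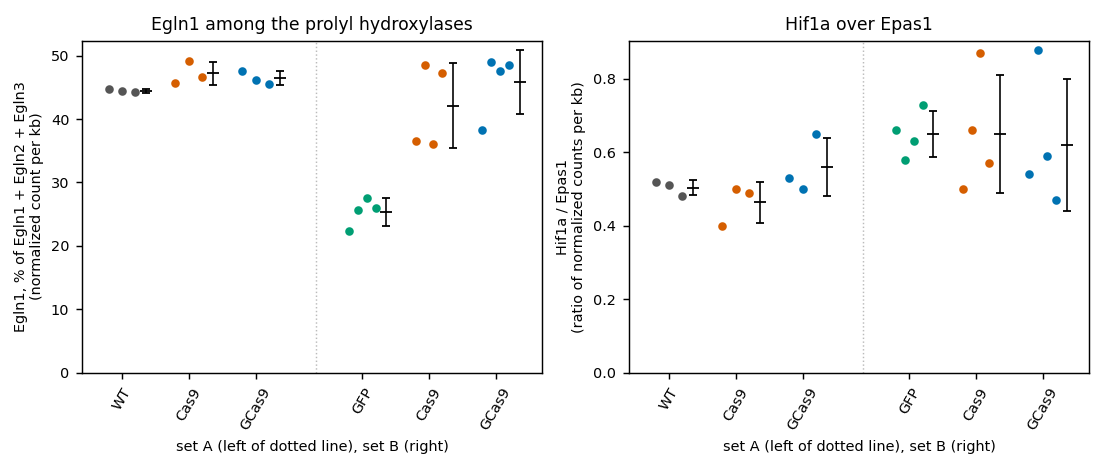
Share of Egln1 in the summed per-kilobase level of the 3 prolyl hydroxylases, in percent, for each library of set A and set B (left). The right panel shows the ratio of Hif1a to Epas1 per kb in the same libraries. The Egln1 share is 22.3 to 27.6% in the 4 GFP libraries and at least 36.1% in the other libraries of set B.

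Egln3, the hydroxylase with the strongest known induction by hypoxia, was scarce in this tissue. Its normalized counts in set A were 26, 31.9 and 30.7 in WT, 57.2, 36.5 and 54.6 with Cas9, and 25.9, 25.9 and 81.4 with GCas9, from 24 to 72 reads per library. The Cas9 libraries lay above WT, while GCas9 had 2 libraries at the WT level and the highest library of the set. Cas9 differed from WT by 0.7 ± 0.43 on the log2 scale (95% interval -0.26 to 1.67; unadjusted p = 0.133, adjusted p = 0.51 in limma), and by 0.59 without Cas9 replicate 1. The 3 libraries with most Egln3, Cas9 replicates 1 and 3 and GCas9 replicate 3, were also the 3 with the highest summed microglia and macrophage markers, 9055, 9815 and 10866 against 5306 to 7077 in the other 6. The part of these cells in the Egln3 level was not tested.

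In set B, Egln3 had normalized counts of 11.6, 5.99, 15.2 and 4.55 with GFP, 7.9, 4.17, 3.54 and 3.68 with Cas9 and 11.5, 14, 6.42 and 11.2 with GCas9. With 3 to 16 reads per library its mean was under 10 and it was not tested within this set. It reached the mean of 10 in the fit of all 21 libraries only through set A, so the contrasts between the sets rest on those same few reads and are given as values from which nothing is read. The difference between GCas9 and Cas9 was unequal in the sets by 1.37 (unadjusted p = 0.033, adjusted p = 0.99 in limma), which was 2.24 with quantile normalization and 1.1 to 1.91 with 1 library left out. The difference between Cas9 and control was unequal by -1.46 (unadjusted p = 0.024, adjusted p = 0.95), a contrast added after the data were seen. In these contrasts 4.34% and 4.8% of 16094 genes had an unadjusted p under 0.05. No other of the 10 genes had one, and Egln1 had 0.35 ± 0.26 (adjusted p = 0.99) for GCas9 against Cas9.

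Among the targets, Vegfa had means of 440 ± 37.8 with GFP, 420 ± 46.4 with Cas9 and 448 ± 25.4 with GCas9 in set B (SD, n = 4 each), within libraries from 364 to 491. In set A its means were 2589 ± 103 in WT, 2558 ± 285 with Cas9 and 2467 ± 175 with GCas9 (SD, n = 3 each). The groups overlapped in each set. Ldha, which reduces pyruvate to lactate, had the most reads of the 10 genes in every group, 2318 to 4375 per library in set B. Its means there were 3329 ± 239, 3268 ± 247 and 3180 ± 169 in GFP, Cas9 and GCas9 (SD, n = 4 each), and GFP replicate 1 stood above the other 3 of its group at 3688. In set A they were 4140 ± 326, 3845 ± 406 and 4178 ± 256 in WT, Cas9 and GCas9 (SD, n = 3 each), with overlap. The pseudogene rows Ldha-ps and Ldha-ps2 were listed at 0.0 to 16.2, which bounds what was counted there.

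Pgk1, a glycolytic enzyme that makes ATP, had means of 670 ± 60.7 with GFP, 714 ± 52.8 with Cas9 and 741 ± 74.0 with GCas9 in set B (SD, n = 4 each). These means are in the same order as those of Egln1, but the libraries overlapped throughout, from 624 to 824, and GCas9 differed from GFP by 0.14, the highest value among the HIF genes in that comparison. In set A the means of Pgk1 were 1679 ± 121, 1697 ± 71.7 and 1700 ± 99.7 (SD, n = 3 each). Bnip3 had 740 ± 85.7, 787 ± 27.7 and 746 ± 125 in GFP, Cas9 and GCas9 of set B (SD, n = 4 each), and 1300 ± 108, 1319 ± 51.3 and 1231 ± 71.5 in WT, Cas9 and GCas9 of set A (SD, n = 3 each). Its groups overlapped in each set as well.

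Pdk1, the kinase that inhibits pyruvate dehydrogenase, was, beside Egln3, the target whose groups did not overlap in a comparison. In set A its normalized counts were 737, 733 and 736 in WT, 843, 711 and 685 with Cas9, and 741, 789 and 886 with GCas9. The WT libraries were almost equal and the GCas9 libraries lay above them, the lowest by little. GCas9 differed from WT by 0.13 ± 0.09 on the log2 scale (unadjusted p = 0.2, adjusted p = 0.79 in limma), and by 0.06 without GCas9 replicate 3. In set B, Pdk1 had 419, 399, 397 and 372 with GFP, 356, 311, 449 and 343 with Cas9, and 392, 369, 392 and 347 with GCas9. The direction there was not that of set A, and the groups overlapped.

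Counted over the 10 genes, the comparison of Cas9 with WT in set A had 6 higher and 4 lower, with a median of 0.02 beside 0.0 over all 15924 genes tested. None passed, against 0.00628% of all genes, and 2 had groups that did not overlap, Epas1 and Egln3, against 19.6% of all genes. GCas9 against WT also had 6 higher and 4 lower, with a median of 0.02, none past the threshold against 0.00628% of all genes, and 1 without overlap, Pdk1, against 16.2%. GCas9 against Cas9 had 4 higher, 5 lower and 1 at 0 after rounding, none past the threshold against 0.0% of all genes, and 1 without overlap, Epas1, against 8.84%. That gene was also the 1 of 10 with an unadjusted p under 0.05, a share of all genes of 5.45%. These counts lie near or below the shares of all genes.

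In set B, with 9 of the 10 genes tested among 15428, Cas9 against GFP had 2 higher and 7 lower, with a median of -0.06 beside -0.01 over all genes. GCas9 against GFP had 2 higher, 5 lower and 2 at 0 after rounding, with a median of -0.04 beside 0.0. GCas9 against Cas9 had 5 higher and 4 lower, with a median of 0.02 beside 0.0. In each of these 3 comparisons limma called none of the 9, against 0.0% of all genes. None had an unadjusted p under 0.05, against 6.24%, 6.48% and 3.84% of all genes. None was without overlap, against 4.68%, 4.16% and 2.02% of all genes. With shares this small, finding none among 9 genes is no result about these genes. The comparisons with GFP share the GFP libraries, and those with WT share the WT libraries.

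The size of change that these data leave room for is given by the 95% intervals. Over the 9 genes tested in set B, the intervals of Cas9 against GFP ran from -0.38 to 0.34 and those of GCas9 against GFP from -0.36 to 0.34. Each interval reached 0.16 to 0.32 to either side of its estimate. The interval of Egln1 for GCas9 against GFP, 0.89 to 1.75, lies above all of them, and that for Cas9, 0.6 to 1.45, does too. In set A the intervals of the 10 genes against WT ran from -0.6 to 1.67, both ends being those of Egln3. DESeq2 and edgeR on recovered reads called 0 of 67 tests of these genes each, with 1 unadjusted p under 0.05 each and lowest adjusted p-values of 0.41 and 0.44.

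The other genes of the pathway were read from 3 lists of known pathway genes: 17 further genes of the HIF machinery (subunits, coactivators and ubiquitin ligase components), 22 genes of glycolysis and 50 further HIF targets. None of their genes passed the test in limma in any of the 6 comparisons. In set B the machinery had 7 genes higher and 10 lower with Cas9 against GFP (median -0.06) and 9 higher and 8 lower with GCas9 against GFP (median 0.02). Glycolysis had 11 higher and 11 lower with Cas9 (median 0.0) and 15 higher and 7 lower with GCas9 (median 0.06). Of the 43 further targets that could be tested, 23 were higher and 20 lower with Cas9 (median 0.01), and 17 higher and 26 lower with GCas9 (median -0.04). The medians of all genes were -0.01 and 0.0. At an unadjusted p under 0.05, the Cas9 comparison had 3 of 17, 0 of 22 and 3 of 43 genes of the lists, beside 6.24% of all genes. The GCas9 comparison had 3 of 17, 3 of 22 and 5 of 43, beside 6.48% of all genes.

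In set A the machinery had 2 higher and 15 lower with Cas9 against WT (median -0.08) and 5 higher and 12 lower with GCas9 against WT (median -0.05). Glycolysis had 9 higher and 13 lower with Cas9 (median -0.05) and 7 higher and 15 lower with GCas9 (median -0.06). Of 49 further targets tested, 33 were higher and 16 lower with Cas9 (median 0.04), and 27 higher and 22 lower with GCas9 (median 0.04). At an unadjusted p under 0.05, the Cas9 comparison had 3 of 17, 5 of 22 and 6 of 49 genes of the lists, beside 11.8% of all genes. The GCas9 comparison had 0 of 17, 4 of 22 and 3 of 49, beside 6.77% of all genes.

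The list genes with the smallest p-values are named here, and none passed in limma. With Cas9 against GFP these were Fam162a, a mitochondrial protein induced by hypoxia, at 0.35 ± 0.1 on the log2 scale, Arnt2, a partner of the alpha subunits in neurons, at -0.3 ± 0.1, and Tceb2, an elongin subunit that joins Vhl, at 0.32 ± 0.13 (adjusted p = 0.78 for each). With GCas9 against GFP these were Car12, a carbonic anhydrase, at -0.36 ± 0.09 (adjusted p = 0.41), and at 0.48 ± 0.15 and 0.28 ± 0.09 the adenylate kinase Ak4 and the brain aldolase Aldoc (adjusted p = 0.72 for each). Their signs were mixed. Apart from Aldoc, the libraries of each of these genes did not overlap between the groups. Genes picked by a small p would mostly be of this kind. Of all genes, 4.68% did not overlap between Cas9 and GFP, and 4.16% between GCas9 and GFP. Wider differences with larger errors, named after their values were seen, were those of Adm, a vasodilator peptide, at -0.87 ± 0.35 with Cas9 against GFP (adjusted p = 0.78 in limma), and of Hif3a, another alpha subunit, at -0.78 ± 0.39 with GCas9 against GFP (adjusted p = 0.77).

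In set A the list genes with the smallest p-values for Cas9 against WT were Lox, Pdk4 and Angpt2. Lox, a collagen cross-linking enzyme, had 24.9 ± 3.31 normalized counts with Cas9 and 5.55 ± 1.17 in WT (SD, n = 3 each), a difference of 1.99 ± 0.36 (adjusted p = 0.41 in limma and 0.024 in DESeq2). The WT level of Lox is under the minimum mean of 10, so the gene entered the fit only through the group in which it was high, and its difference is a description. Angpt2, a vessel-destabilizing ligand, had 48.2 ± 23.6 against 17.1 ± 1.16, a difference of 1.33 ± 0.36, and Pdk4, a relative of Pdk1, had 396 ± 33.3 against 306 ± 25.2, a difference of 0.37 ± 0.1 (adjusted p = 0.41 for each in limma). Without Cas9 replicate 1 the differences of Lox, Angpt2 and Pdk4 were 1.96, 0.97 and 0.32. These 3 genes, picked by small p, were higher in all 3 Cas9 libraries than in all WT libraries. Of all genes, 19.6% did not overlap between these groups. Higher in the same way were the summed microglia and macrophage markers, 7077 to 9815 with Cas9 against 5306 to 6151 in WT. So were the endothelial markers, 4305 to 5291 against 3462 to 3986, and the astrocyte markers, 83802 to 92159 against 69800 to 74060. The part of these cells in the 3 genes was not tested. With GCas9 against WT, Pdk4 differed by 0.32 ± 0.1, the transferrin receptor Tfrc by -0.15 ± 0.05 and the phosphofructokinase Pfkl by -0.13 ± 0.04 (adjusted p = 0.72 for each in limma). Astrocyte markers summed to 82599 to 90080 with GCas9 and microglia and macrophage markers to 6740 to 10866, each above WT without overlap. Single genes weigh heavily in these sums. Gfap was at 5069 to 20573 with GCas9 against 1320 to 1768 in WT, and Lyz2 at 542 to 1710 against 100 to 149. The smallest log2 differences in the 2 lists were 0.01 for Slc1a2 and 0.07 for P2ry12. The part of these cells in Pdk4, Tfrc and Pfkl was not tested. The widest differences with GCas9 against WT, named after their values were seen, included Maff, a small basic leucine zipper factor, at 1.15 ± 0.54 (adjusted p = 0.73 in limma). Beside it were the hexokinase Hk2 at 1.04 ± 0.42 (adjusted p = 0.72) and the target Cxcr4 at 1.04 ± 0.49 (adjusted p = 0.73). With Cas9 against WT, Loxl2 differed by 1.46 ± 0.73 and Maff by 1.08 ± 0.54 (adjusted p = 0.45 for each in limma). Maff, Cxcr4 and Loxl2 had a mean under 10 in set B and were not tested there.

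**Figure D4:**
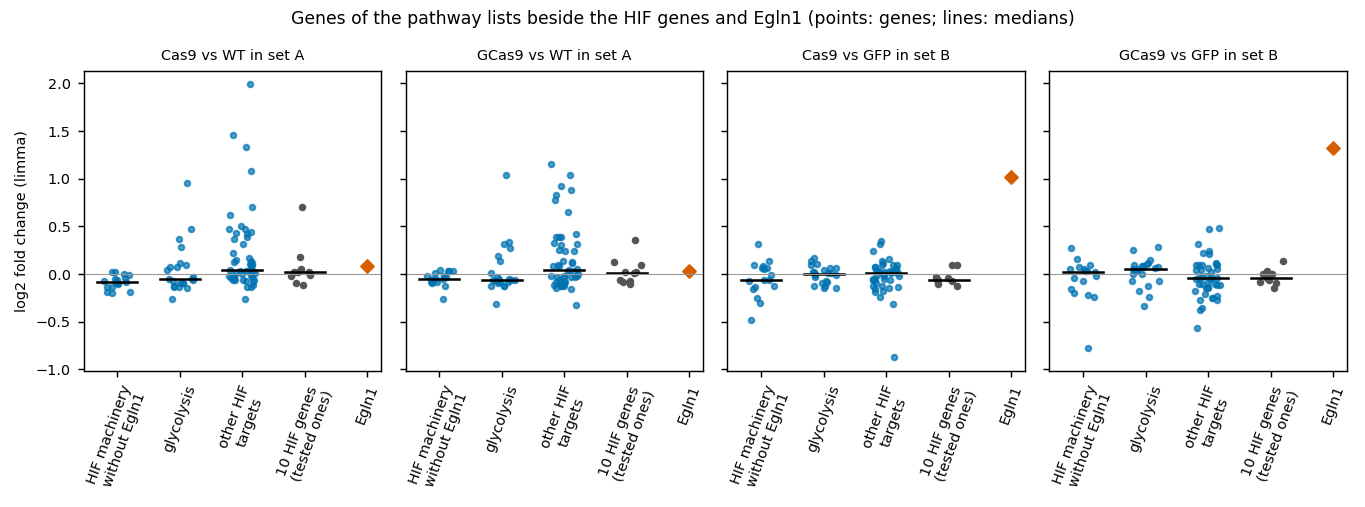
Log2 differences of the genes of 3 pathway lists, of the tested HIF genes and of Egln1 in the 4 comparisons with a control, with points for genes and bars for medians. The list medians lie between -0.08 and 0.06, and Egln1 lies at 1.02 and 1.32 against GFP.

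The spread within groups was used to find the genes whose pattern was most like that of 4 of the genes, over 21 libraries and 11652 other genes, after the group means were taken off. These correlations are a description, since libraries of a group also differ in depth and tissue composition, whose part in them was not tested. Hif1a was most like Nek6 (Pearson r = 0.86, Spearman rho = 0.85), Gsap (0.85 and 0.85) and Rbm43 (0.84 and 0.8). Epas1 was most like Lgr4 (0.83 and 0.78), Hipk3 (0.8 and 0.62) and Xylt1 (0.78 and 0.78), and its r with Hipk3 was 0.3 in set A alone and 0.86 in set B alone. Vegfa was most like Flt1 (0.82 and 0.82), Sox12 (0.81 and 0.79) and Cxcl12 (0.77 and 0.77). Ldha was most like Phtf1os (0.83 and 0.72), Vhl (0.8 and 0.82) and Cct7 (0.79 and 0.76), so that 1 of the 10 genes was among the 3 nearest to another. Without the 2 libraries in which each of the 4 genes lay farthest from its group mean, the 12 values of r were 0.62 to 0.87.

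**Figure D5:**
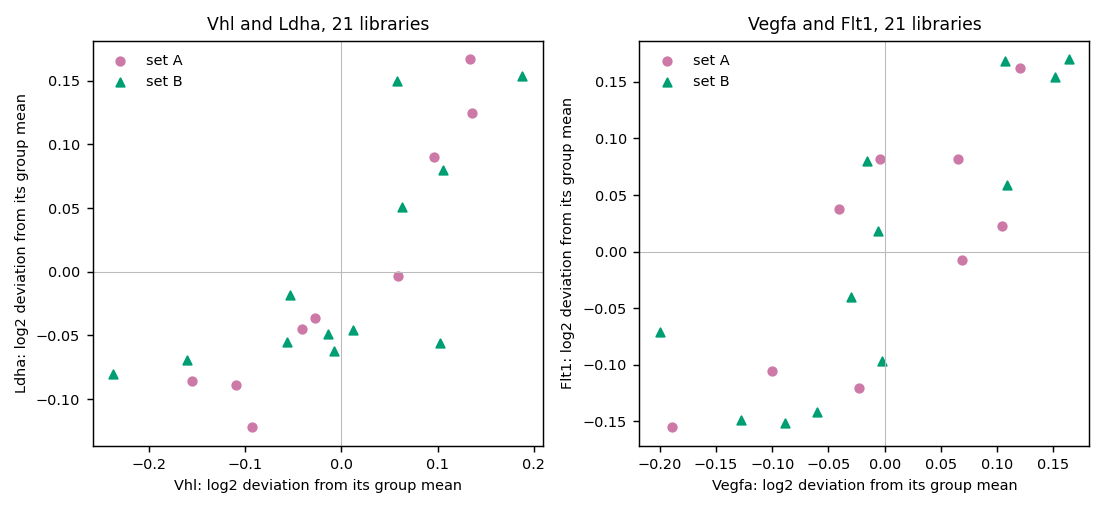
Deviations of log2(normalized count + 1) from the group mean in each of the 21 libraries for Vegfa against Flt1 and for Ldha against Vhl, with set A and set B marked apart. The points follow a line with r = 0.82 for Vegfa and Flt1 and r = 0.8 for Ldha and Vhl.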

How the data were processed

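RNA sequencing of 21 libraries was analysed, with groups and replicate numbers taken from the labels and the 2 sets from the numbering of the titles. Per the labels' protocols, RNA was purified on columns, and SMARTer cDNA was made into Nextera XT libraries, so reads are amplified copies. Tools listed without their roles in the submitters' processing notes are DESeq2, HTSeq, SAMtools, STAR 2.5.2b and R 3.3.3, with the build GRCm38.p3; strand and counting options are not given in the sources used here. The deposited values are a signal per gene, the read count divided by 1 size factor per library, which the authors computed for each set apart. Dividing by the smallest step of a library gave whole read counts for 100% of values, to within 0.001 reads. All columns belonged to a sample, and no pair of replicates was a duplicate: over 27 pairs within groups the chi-square per gene was 5.81 to 59.58.

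From these, log2(value + 1) was fitted with limma 3.58.1 in R 4.3.3 (moderated variance with a trend, two-sided, all groups of a set together, genes with a mean of at least 10), adjusted by Benjamini-Hochberg over all genes, and tested on simulated data. Set A gave 15924 genes, set B 15428 and the fit of all libraries 16094. Alternatives were a pseudocount of 0.5, no filter, quantile normalization, a replicate block, edgeR 4.0.16 and DESeq2 1.42.0 on the recovered counts, and leaving out each library. Fold changes are given for Egln1, and for a HIF gene where its unadjusted p was under 0.05 or its groups did not overlap. Genes of the lists are named where called, or else the 3 of smallest p in each comparison with a control. The genes and lists, and 2 contrasts between the sets, were chosen with earlier results of these data known.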

Additional observations from a re-analysis of the deposited data

Results flagged for a closer look

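Of 33 groups of 4 libraries (Egln1 and the 10 HIF genes in the 3 groups of set B), 3 held a library whose gap to its nearest neighbour exceeded Dixon's limit at 95% as a share of the range of its group. Chance gives about 1 in 20 such groups, or 1.65 here. Epas1 was 896 in GCas9 replicate 2, against 1358 to 1410 in the other 3 libraries. Egln3 was 7.9 in Cas9 replicate 1, against 3.54 to 4.17, with 3 to 7 reads per library, in the library with the highest choroid plexus and ependyma markers of set B. Ldha was 3688 in GFP replicate 1, against 3198 to 3218.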

How the results depend on the processing

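None of the 10 HIF genes was called in any of 941 fits of a gene under an alternative (lowest adjusted p 0.22, for Ldha with Cas9 against WT without Cas9 replicate 2). Over all genes, limma called 1 for Cas9 against WT, 1 for GCas9 against WT, 2 for the added difference between sets of Cas9 against control and 0 elsewhere. DESeq2 called 116, 218, 4 (GCas9 against Cas9, set A), 14 (Cas9 against GFP) and 41 (GCas9 against GFP), and edgeR called 0 for Cas9 against WT. Without a filter 1 gene was called for the difference between sets of GCas9 against Cas9. The cause was not tested. Leaving out 1 library gave 0 to 7 genes for Cas9 against WT, 0 to 2 for GCas9 against WT, 0 to 1 for GCas9 against Cas9 in set A, 0 to 2 for Cas9 against GFP, 0 to 3 for GCas9 against GFP, 0 for GCas9 against Cas9 in set B and 0 to 1 for the difference between sets.

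With a replicate block, limma called 2 genes for each comparison with WT and 5 for GCas9 against GFP. Only 6 of 9 same-numbered pairs in set A (r from -0.02 to 0.64) and 7 of 12 in set B (r from -0.13 to 0.46) deviated together with r over 0.1, against 4 of 18 and 6 of 36 pairs of different numbers, and not every library correlated best with one of its own number in either set. Every pair was over 0.1 for GCas9 and WT and for GCas9 and Cas9 of set B, where the block changed no call of Egln1 or a HIF gene. Not every pair was for GCas9 and GFP (r from -0.13 to 0.46), so those libraries share only a number. With the block, Egln1 for GCas9 against GFP passed (1.32, adjusted p = 0.026), as did its difference between sets of GCas9 against control (1.29, adjusted p = 0.047). Egln1 also passed without Cas9 replicate 3 of set B for Cas9 against GFP (1.23, adjusted p = 0.046) and without GCas9 replicate 1 for GCas9 against GFP (1.45, adjusted p = 0.05). Its value for GCas9 against WT ran from -0.01 (without GCas9 replicate 2) to 0.07 (without GCas9 replicate 3) as libraries of set A were left out. Of 382 values of 27 named differences, 373 kept direction and side of the threshold, 8 crossed into it and 1 turned. Depth limits Egln3 in set B, at 3 to 16 reads per library.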
